A study of Mus musculus with 13 samples.

Results

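Mouse miR-191 and miR-425 are made from a pair of neighbouring hairpins on chromosome 9, and their counts were followed here in thymic iNKT cells of wild type and *Tet2/3* DKO mice. The members were chosen by name. They are the hairpins mmu-mir-191 and mmu-mir-425, 2 of 1127 hairpins listed, and the mature arms miR-191-5p, miR-191-3p, miR-425-5p and miR-425-3p, 4 of 1297 mature sequences listed. All 6 passed the filter on low counts, which left 350 hairpins and 401 mature sequences. Small RNA-seq was performed on iNKT cells sorted from the thymus as TCRβ+ and tetramer+ cells, with 1 library per mouse. The 6 WT mice were C57BL/6 controls. The 7 *Tet2/3* DKO mice (Tet2-/-Tet3flx/flx CD4 cre) lacked *Tet2* in the whole animal, while the floxed *Tet3* was deleted only where the CD4 cre was active, in T cells. Mice of both sexes were used, and thymocytes were taken at 21 to 25 days of age. The deleted genes cannot be checked in small RNA counts.

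A hairpin is cut out of a longer primary transcript by Drosha with DGCR8, and Dicer then removes its loop to leave a short duplex. One arm of the duplex is usually kept by an Argonaute protein and pairs with target mRNAs through its seed, while the other is mostly lost. miR-191 is abundant in blood and lymphoid cells and has been linked to the survival of T cells. The pair is commonly assigned to *Dalrd3*, whose protein takes part in the modification of tRNA. iNKT cells are innate-like T cells that recognise lipids presented by CD1d, and TET2 and TET3 oxidise methylated cytosine in DNA.

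The mature sequences are shown because their seeds decide which mRNAs each arm can pair with. They are those of RefSeq on GRCm38.p6, written 5′ to 3′ with the seed, bases 2 to 8, in capitals.
miR-191-5p: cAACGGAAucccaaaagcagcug
miR-191-3p: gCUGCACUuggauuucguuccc
miR-425-5p: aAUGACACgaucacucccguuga
miR-425-3p: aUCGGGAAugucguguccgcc
All 4 lie on the plus strand. miR-191-5p is 23 bases long at chr9:108568325-108568347, and miR-191-3p is 22 bases long at chr9:108568367-108568388. miR-425-5p is 23 bases long at chr9:108568789-108568811, and miR-425-3p is 21 bases long at chr9:108568830-108568850. No seed is shared among the 4 arms. In the RefSeq table, which held 1078 of the 1297 listed mature sequences by name, 1 other mature sequence, miR-489-3p, has the seed of miR-425-5p, and it was not among the sequences tested. The seeds of the other 3 arms occur in no further sequence of that table.

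The hairpins are shown next, with the mature arms in capitals, since the entries of the hairpin table are named for these longer sequences.
mir-191: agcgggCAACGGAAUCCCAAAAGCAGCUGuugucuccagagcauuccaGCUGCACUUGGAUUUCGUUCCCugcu
mir-425: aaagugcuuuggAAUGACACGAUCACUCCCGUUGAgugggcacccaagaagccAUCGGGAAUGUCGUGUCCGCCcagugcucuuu
mir-191 spans 74 bases at chr9:108568319-108568392, with 19 bases between its arms. mir-425 spans 85 bases at chr9:108568777-108568861, with 18 bases between its arms. The hairpins lie 384 bases apart on the same strand. The gene that holds them depends on the annotation. In RefSeq, both lie within the span of *Dalrd3* (chr9:108567484-108572773). In GENCODE release M21, *Dalrd3* (chr9:108569886-108572774) begins 1024 bases downstream of mir-425, and both hairpins lie in an exon of 1 of the 2 transcripts of the lincRNA 4833445I07Rik (chr9:108567533-108569174), which ends 711 bases before *Dalrd3* begins. GENCODE also places a miRNA gene on the opposite strand, Gm24083, over mir-191. No other feature of either table had the same counts as a member in all 13 libraries.

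**Figure D1:**
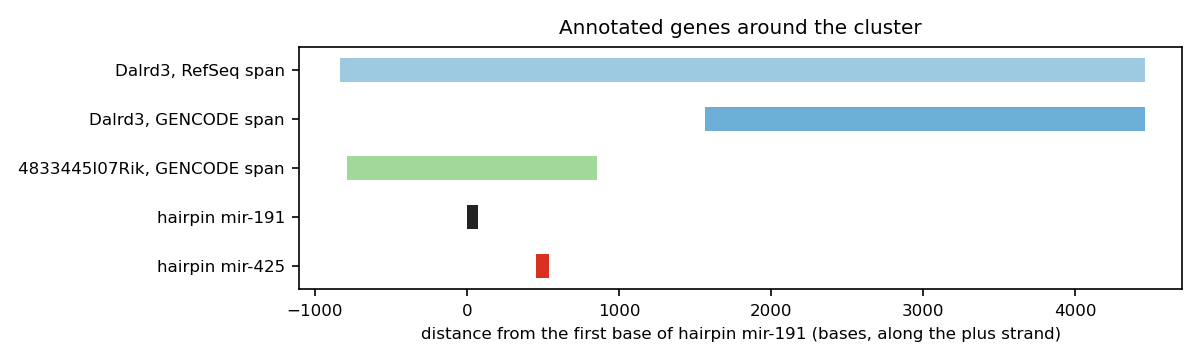
Distance in bases from the first base of hairpin mir-191 along the plus strand (x axis) of the hairpins and of the gene spans that RefSeq or GENCODE M21 place around them (bars). Both hairpins lie inside the RefSeq span of Dalrd3 and the GENCODE span of 4833445I07Rik, 1024 bases or more upstream of the GENCODE span of Dalrd3.

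Total counts of mature sequences were 1110852 to 2582057 in WT and 1837631 to 4361963 in *Tet2/3* DKO libraries, and total counts of hairpins were 469117 to 1110226 and 728653 to 1910526. The lower depth of the WT libraries moves with genotype. Both tables count the same 13 libraries and are not independent of each other. The hairpins mir-142a, mir-150 and mir-181a-1, listed as lymphoid and T cell markers, were abundant. Their summed levels were 136128 to 152815 CPM (counts scaled to a common library total) in WT and 133325 to 155388 CPM in *Tet2/3* DKO libraries. Within this sum, mir-142a (log2 fold change -0.93) and mir-150 (-1.28) fell and mir-181a-1 (0.88) rose. Of 13 hairpins that mark red cells, myeloid cells, hepatocytes, stroma, epithelium or endothelium, 8 were tested. Of these, 5 of red cells, myeloid cells and stroma fell, 0 rose and 3 of epithelium and endothelium did not pass the test. Over all tested hairpins 27.1% were called lower. The summed level of the 13 was 666 to 1350 CPM in WT and 389 to 586 CPM in *Tet2/3* DKO libraries, without overlap. Red cell markers were its largest part in WT, at 416 to 1005 CPM against 101 to 364 CPM in *Tet2/3* DKO libraries. Epithelial markers were at 71.1 to 94.6 CPM in WT and 93.1 to 140 CPM in *Tet2/3* DKO libraries. The myeloid marker mir-223 and the hepatocyte marker mir-122 were at 0 in at least 1 *Tet2/3* DKO library. The part of these markers and of depth in the results that follow was not tested. In bulk samples, fewer cells of a type and less RNA per cell cannot be told apart.

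Between genotypes, the neighbours moved unequally. Hairpin mir-425 and mature miR-425-5p were separated between genotypes, each of the 7 *Tet2/3* DKO values lying above every WT value. Such a separation was found for 18% of tested hairpins and 12.7% of tested mature sequences, and in either direction for 32% and 27.2%. The abundant miR-191-5p was modestly lower, and hairpin mir-191 did not pass the test. Members past the threshold, an adjusted p-value under 0.05 in edgeR's quasi-likelihood test with Benjamini-Hochberg adjustment over the whole table, were 1 of 2 hairpins and 3 of 4 mature arms. In the whole tables, 59.7% of tested hairpins and 55.6% of tested mature sequences passed the same threshold, so the count of members that passed is close to this background. None of the 6 had an absolute log2 fold change above 2, the size limit that the study used together with the adjusted p-value, which 8.29% of tested hairpins and 11.2% of tested mature sequences passed.

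miR-191-5p made up most of the mature counts of the cluster. In CPM scaled by TMM, its level was 41508 at the lowest, 49457 at the median and 59030 at the highest in WT mice, and 28413, 40341 and 46156 in *Tet2/3* DKO mice. It ranked between the third and the seventh most abundant of the 401 mature sequences in every library. Of the 7 *Tet2/3* DKO mice, 5 lay below all WT mice, and the other two lay within the WT range. The mean fell from 49739 ± 7031 CPM (SD, n = 6) to 39137 ± 5603 CPM (SD, n = 7), which is -0.35 as a log2 fold change (SE 0.117, 95% confidence interval -0.59 to -0.10, edgeR adjusted p = 0.0157). Lower values of this kind were called for 27.4% of tested mature sequences. With libraries scaled by their size only, the log2 fold change was -0.10 and did not pass the test (edgeR adjusted p = 0.465).

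miR-191-3p, the minor arm, was present at 101 to 129 CPM in WT mice (median 116) and 86.5 to 127 CPM in *Tet2/3* DKO mice (median 103). The groups overlapped. Its log2 fold change was -0.15 (SE 0.151, 95% confidence interval -0.46 to 0.17, edgeR adjusted p = 0.416), and it turned to 0.091 with libraries scaled by size only.

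miR-425-5p was at 426 CPM at the lowest, 506 at the median and 561 at the highest in WT mice, and at 583, 653 and 781 CPM in *Tet2/3* DKO mice. All *Tet2/3* DKO mice were above all WT mice, a separation in this direction that 12.7% of tested mature sequences showed, with 27.2% separated in either direction. The mean rose from 500.7 ± 56.4 CPM (SD, n = 6) to 665.9 ± 69.5 CPM (SD, n = 7), 1.33-fold, with a log2 fold change of 0.41 (SE 0.115, 95% confidence interval 0.17 to 0.65, edgeR adjusted p = 0.00451). A rise was called for 28.2% of tested mature sequences. With upper-quartile scaling its log2 fold change was 0.25 and just missed the threshold (edgeR adjusted p = 0.0557).

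miR-425-3p was the rarest of the 4 arms, with 21 to 57 counts per library in WT and 64 to 176 in *Tet2/3* DKO mice. Its level was 10.6 CPM at the lowest, 20.3 at the median and 43.8 at the highest in WT mice, against 28.7, 36.1 and 45.0 CPM in *Tet2/3* DKO mice. The groups overlapped, with 1 of 7 *Tet2/3* DKO mice above all WT mice. The log2 fold change of 0.72 (SE 0.298, 95% confidence interval 0.10 to 1.34, edgeR adjusted p = 0.0438) was close to the threshold. It missed the test when any one of 12 libraries was left out and passed it without WT replicate 2, which had the highest WT level (0.96, edgeR adjusted p = 0.00801). Over the 13 fits the log2 fold changes were 0.50 to 0.96 and the edgeR adjusted p-values 0.00801 to 0.163.

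The order of the arms was the same in every library, with miR-191-5p first, then miR-425-5p, miR-191-3p and miR-425-3p, and their ranges of CPM did not overlap in either genotype. The arms are 21 to 23 bases long. How well each sequence was captured in the libraries was not measured, so this is an order of counts and not of molecules per cell. miR-425-5p ranked between 77 and 96, miR-191-3p between 147 and 167 and miR-425-3p between 202 and 308 among the 401 mature sequences. The 4 arms together took 3.94% to 5.10% of all mature counts in WT mice (4.58% ± 0.466, SD, n = 6) and 3.55% to 5.68% in *Tet2/3* DKO mice (4.32% ± 0.699, SD, n = 7), ranges that overlap.

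**Figure D2:**
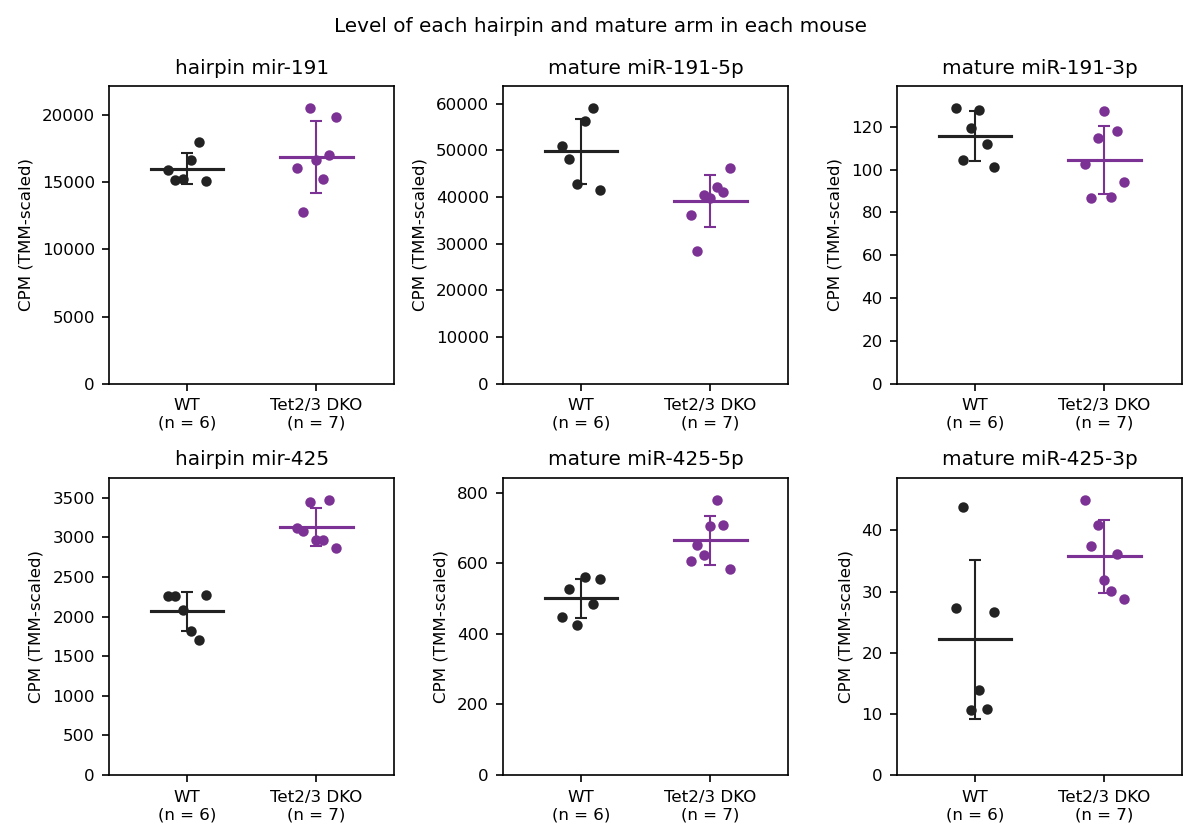
Level in CPM scaled by TMM (y axis, from 0) of each hairpin and mature arm in each mouse (points), with the mean (line) and SD (bar) of 6 WT and 7 Tet2/3 DKO mice. Hairpin mir-425 and miR-425-5p do not overlap between genotypes, whereas the other 4 do. Of all tested features, 32% of hairpins and 27.2% of mature sequences do not overlap in one direction or the other.

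In the hairpin table, mir-425 was at 1699 CPM at the lowest, 2171 at the median and 2271 at the highest in WT mice, and at 2871, 3083 and 3479 CPM in *Tet2/3* DKO mice. All 7 *Tet2/3* DKO mice were above all WT mice, as was found for 18% of tested hairpins, and 32% of tested hairpins did not overlap in one direction or the other. The mean rose from 2066 ± 249 CPM (SD, n = 6) to 3135 ± 241 CPM (SD, n = 7), 1.52-fold, with a log2 fold change of 0.60 (SE 0.0984, 95% confidence interval 0.40 to 0.81, edgeR adjusted p = 5.38e-05). A rise was called for 32.6% of tested hairpins. Of the 6 members this was the one whose call held under every scaling, filter, tool and left-out library tried.

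Hairpin mir-191 was at 15079 to 18020 CPM in WT mice (median 15616) and 12793 to 20553 CPM in *Tet2/3* DKO mice (median 16655). The *Tet2/3* DKO mice surrounded the WT range, with 2 above it and 1 below it. Its log2 fold change was 0.076 (SE 0.106, 95% confidence interval -0.15 to 0.30, edgeR adjusted p = 0.561), and its sign turned with the scaling, to -0.034 with the RLE factors of DESeq2 and -0.16 with upper-quartile factors, while library size alone gave 0.42 (edgeR adjusted p = 0.0012).

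**Figure D3:**
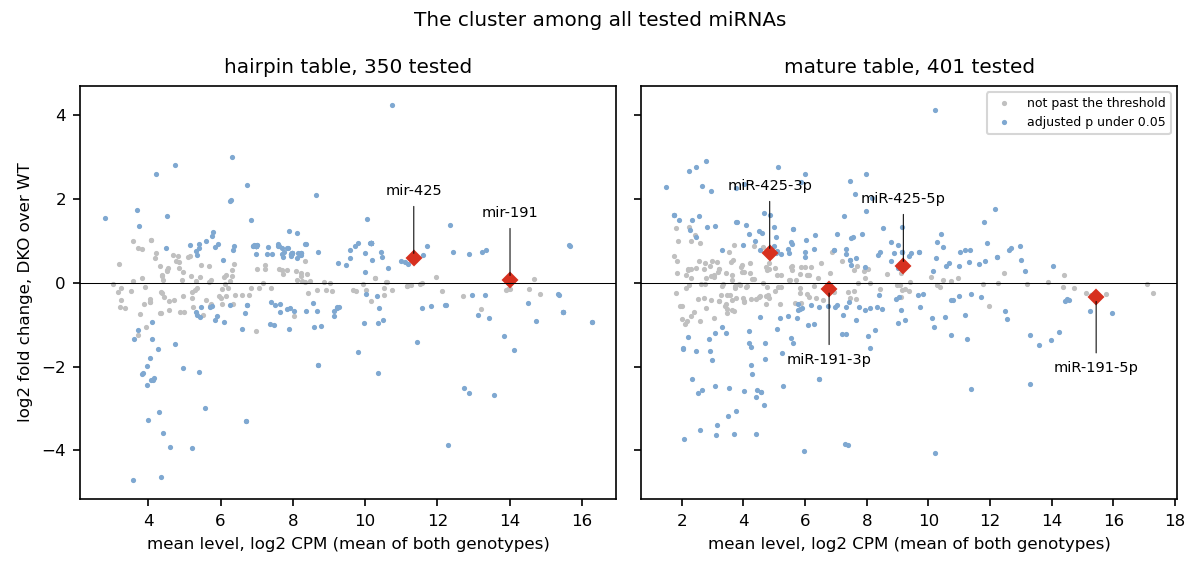
Log2 fold change of Tet2/3 DKO over WT (y axis) against the log2 of the mean CPM of both genotypes (x axis) for 350 hairpins (left) and 401 mature sequences (right), with those past the adjusted p threshold in blue and the cluster in red. mir-425 lies at 0.60 and miR-191-5p at -0.35, and all 6 members lie within 2 of the zero line.

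The scaling shifts all members of a table together. Against TMM, the median log2 fold change over all tested hairpins moved by -0.11 with RLE factors, 0.34 with library size only and -0.24 with upper-quartile factors, and that over mature sequences moved by 0.011, 0.25 and -0.16. Relative to the median of its table under the same scaling, mir-191 was 0.052 to 0.059 higher on the log2 scale, mir-425 was 0.57 to 0.59 higher, miR-425-5p was 0.41 to 0.42 higher and miR-191-5p lay between -0.34 and -0.33. A scaling acts on all features of a library alike, so the distance between the neighbours had to stay nearly the same under the 4 scalings. It is no separate evidence that they changed unequally. The split of calls over each whole table moved as well. Under TMM 95 hairpins were lower and 114 higher, under library size only 56 and 151, and under upper-quartile factors 137 and 93. For mature sequences the same splits were 110 and 113, 77 and 142, and 132 and 89.

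**Figure D4:**
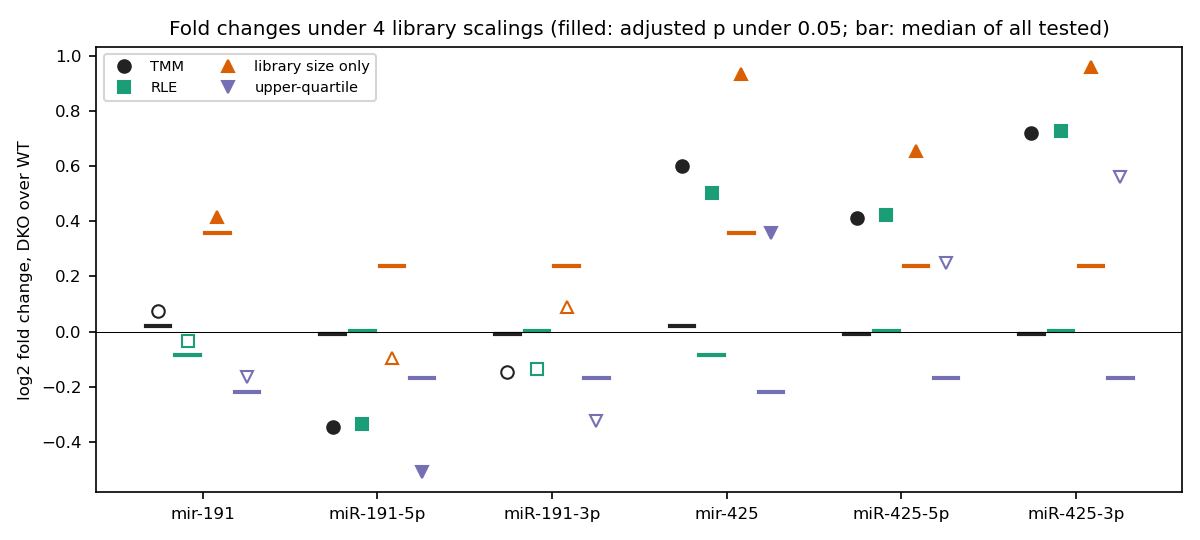
Log2 fold change of Tet2/3 DKO over WT (y axis) of each member under 4 library scalings (symbols, filled where the edgeR adjusted p is under 0.05), with the median of all tested features of that table under the same scaling (short bars). The symbols move up and down with the bars, and mir-191 changes sign while mir-425 stays 0.57 to 0.59 above its bar.

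A ratio of counts within a library needs no scaling, and its difference between genotypes is the test of whether neighbours changed unequally. The exact two-sided permutation test was run over all divisions of the 13 mice into 6 and 7, with p-values adjusted over the 6 ratios compared, and 0.000583 is the smallest p it can give. miR-425-5p amounted to 0.822% at the lowest, 0.997% at the median and 1.34% at the highest of the counts of miR-191-5p in WT mice, and to 1.26%, 1.73% and 2.30% in *Tet2/3* DKO mice. Of the *Tet2/3* DKO mice, 6 of 7 were above all WT mice, and *Tet2/3* DKO replicate 7, at 1.26%, lay below WT replicate 6. The log2 ratio was 0.76 higher in *Tet2/3* DKO mice (exact permutation p = 0.00175, adjusted p = 0.00466). Both arms are 23 bases long.

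The hairpins gave the same direction. Counts of mir-425 were 9.43% at the lowest, 13.9% at the median and 15.1% at the highest of those of mir-191 in WT mice, and 14.4%, 19.4% and 24.1% in *Tet2/3* DKO mice. Again 6 of 7 *Tet2/3* DKO mice were above all WT mice, with replicate 7 as the exception. The log2 ratio was 0.54 higher in *Tet2/3* DKO mice (exact permutation p = 0.00233, adjusted p = 0.00466). The hairpins differ in length, 74 against 85 bases, and this difference is the same in all mice.

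The balance between the arms of a hairpin did not pass the test for either member. miR-191-3p amounted to 0.189% to 0.279% of miR-191-5p in WT mice (median 0.236%) and 0.204% to 0.319% in *Tet2/3* DKO mice (median 0.285%), a log2 difference of 0.19 (exact permutation adjusted p = 0.177). miR-425-3p amounted to 2.21% to 8.31% of miR-425-5p in WT mice (median 3.65%) and 3.86% to 7.44% in *Tet2/3* DKO mice (median 5.09%), a log2 difference of 0.47 (exact permutation adjusted p = 0.177). The groups overlapped in both, and for both hairpins the 5p arm was the more abundant in every library.

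The hairpin table and the mature table did not stand in one relation for the neighbours. Counts of hairpin mir-191 were 12.5% to 16.1% of the summed counts of its arms in WT mice (median 13.4%) and 15.4% to 22.3% in *Tet2/3* DKO mice (median 18.6%), with 6 of 7 *Tet2/3* DKO mice above all WT mice. This log2 ratio was 0.45 higher in *Tet2/3* DKO mice (exact permutation p = 0.00233, adjusted p = 0.00466). Counts of hairpin mir-425 exceeded those of its arms in all 13 libraries, at 133% to 193% in WT mice (median 170%) and 157% to 228% in *Tet2/3* DKO mice (median 183%), and the log2 difference of 0.22 did not pass the test (exact permutation p = 0.0874, adjusted p = 0.131). The total of the hairpin table was 41.9% to 47.6% of the total of the mature table in WT and 39.7% to 44.5% in *Tet2/3* DKO libraries, a log2 difference of -0.059 (exact permutation p = 0.169). Among 53 hairpins with both arms listed and a mean of at least 1000 counts, mir-425 was the 8th highest by this percentage, with a median of 179% over the libraries, and mir-191 the 46th, with 16.1%. The median over these hairpins was 49.6%, and 12 were above 100%. Which reads enter each table is not given in the sources used here, so that these percentages compare libraries and do not measure precursor per mature molecule.

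**Figure D5:**
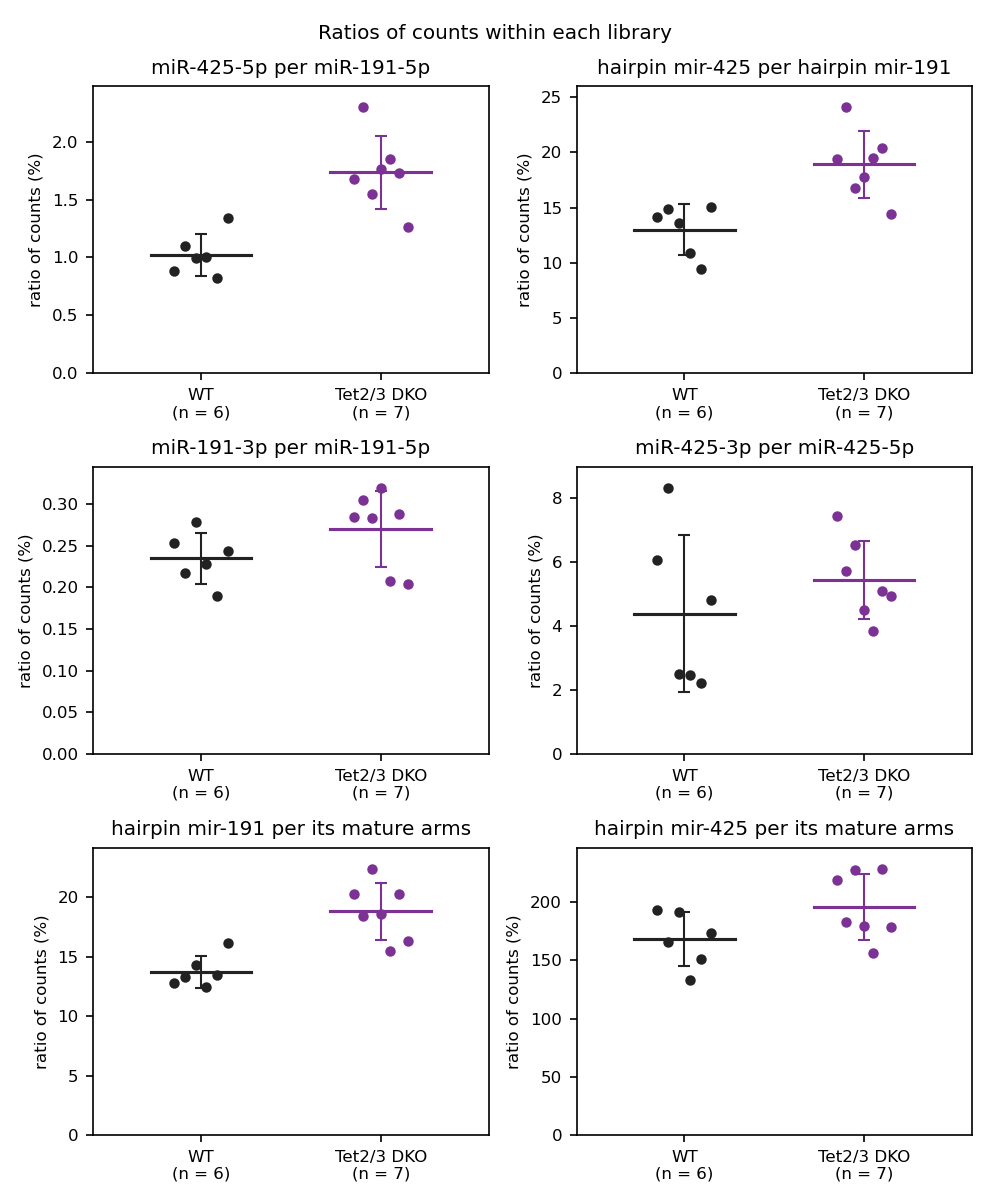
Ratio of counts within each library in percent (y axis, from 0) for 6 pairs of features, one point per mouse, with the mean (line) and SD (bar) of 6 WT and 7 Tet2/3 DKO mice. In the top row and in the panel of hairpin mir-191 per its mature arms, 6 of 7 Tet2/3 DKO mice lie above all WT mice.

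The features that followed each member most closely were those whose log2 ratio of counts to the member varied least over the 13 libraries, among 129 hairpins and 144 mature sequences with at least 100 counts in every library. For miR-191-5p these were miR-23a-3p (SD of the log2 ratio 0.150), miR-378d (0.173) and miR-378a-3p (0.183), while miR-425-5p ranked 79 with an SD of 0.464, near the median of 0.448. For miR-425-5p they were miR-107-3p (0.157), miR-669o-5p (0.165) and miR-21a-5p (0.182), and miR-191-5p ranked 82. Hairpin mir-191 was followed most closely by mir-374b (0.127), mir-374c (0.134) and mir-30d (0.146), with mir-425 at rank 42 (0.372, against a median of 0.441). Hairpin mir-425 was followed by mir-466f-1 (0.124), mir-466f-3 (0.147) and mir-466f-2 (0.153), near-identical copies whose reads cannot be assigned with certainty, with mir-191 at rank 40. miR-378d and miR-378a-3p bear the same family number, as do mir-374b and mir-374c, so these lists too may hold a signal more than once. In each of the 4 lists, the partner from the same cluster was thus not among the features that varied most alike. These ranks describe variation over mice that differ in genotype and depth.

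Hairpins that lie in other protein-coding genes are the class to which the pair is commonly assigned. Of 27 such hairpins listed, 26 were tested under TMM, of which 12 fell, 3 rose and 11 did not pass the test, with a median log2 fold change of -0.23 against 0.02 over all tested hairpins. Over all tested hairpins 27.1% were called lower. The sign of the median of this list depends on the scaling. RLE factors gave 14 lower, 3 higher and a median of -0.33, and upper-quartile factors 18 lower, 1 higher and -0.47. Library size only gave 6 lower, 8 higher and 0.11. The median over all tested hairpins was higher each time, at -0.086, -0.22 and 0.36. mir-425 lay with the few that rose, whose largest log2 fold change was that of mir-106b at 0.88, and far from the largest fall, that of mir-139 at -3.87. Of the 5 hosts in this list with more than 1 hairpin, hairpins of *Mcm7* and *Huwe1* had fold changes of opposite sign under TMM, with at least 1 past the threshold. The sign of small values depends on the scaling, since library size only moved the median over all tested hairpins by 0.34. In *Mcm7*, which encodes a subunit of the replicative helicase, the log2 fold changes were 0.51 for mir-93 (edgeR adjusted p = 0.00244), 0.88 for mir-106b (edgeR adjusted p = 1.90e-05) and -0.16 for mir-25 (edgeR adjusted p = 0.273). In *Huwe1*, a ubiquitin ligase gene, they were 0.47 for mir-98 (edgeR adjusted p = 0.00206) and -0.28 for let-7f-2 (edgeR adjusted p = 0.0370). In *Aopep*, which encodes an aminopeptidase, all 3 hairpins fell, with log2 fold changes of -1.60 for mir-23b, -1.42 for mir-27b and -0.69 for mir-24-1 (edgeR adjusted p = 3.11e-10, 5.82e-10 and 4.59e-06). In *Smc4*, a condensin gene, mir-16-2 fell (-0.28, edgeR adjusted p = 0.0295) and mir-15b was at -0.18 without passing the test, and in *Nfyc*, which encodes a subunit of the transcription factor NF-Y, mir-30e at -0.067 and mir-30c-1 at 0.12 did not pass it. mir-16-2, mir-24-1, let-7f-2 and mir-30c-1 share a mature arm with a copy elsewhere in the genome, so their reads cannot be assigned to these hosts with certainty. The copies let-7f-1 and mir-30c-2 had log2 fold changes of -0.29 and 0.12. These differences within hosts were not tested themselves.

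Of 12 hairpins known for roles in lymphocyte survival and activation, 7 rose, 2 fell and 3 did not pass the test, with a median log2 fold change of 0.67. Over all tested hairpins 32.6% were called higher and 27.1% lower, with a median of 0.02. The listed hairpins are not independent of each other. mir-17, mir-18a, mir-19a, mir-19b-1, mir-20a and mir-92a-1 belong to the same cluster, and mir-181a-1 and mir-181b-1 to another, so the counts and the median weigh these clusters more than once. The largest rise was that of mir-181a-1 at 0.88, which tunes T cell receptor signalling and shares its 5p arm with mir-181a-2, and the largest fall was that of mir-150 at -1.28, a miRNA of mature lymphocytes. Hairpin mir-21a, of a miRNA induced on activation, rose by 0.77 (edgeR adjusted p = 5.77e-06), while its mature arm miR-21a-5p rose by 0.27 (edgeR adjusted p = 0.0239). In the cluster that promotes lymphocyte growth, mir-17 rose by 0.74 (edgeR adjusted p = 6.42e-05), and mir-18a (0.77) and mir-20a (0.66) rose too. Hairpin mir-92a-1 of this cluster fell (-0.47, edgeR adjusted p = 0.00280), and mir-19a (0.064) and mir-19b-1 (0.16) did not pass the test. The values of this list are those of hairpins and do not give the change of the mature arms. Under the other scalings the list had 5 to 7 higher and 1 to 2 lower, with medians of 0.43 to 1.00 where the medians over all tested hairpins were -0.22 to 0.36. The 0.60 of mir-425 was close to the median of this list, and the 0.076 of mir-191 lay below it.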

How the data were processed

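The authors deposited raw counts per hairpin and per mature sequence, 1 column per mouse, made with nf-core/smrnaseq with default parameters. The labels name the build mm10 (GRCm38). The aligner, the miRNA database release and the handling of reads that match several sequences are not given in the sources used here. The sources used here name no molecular identifiers, so PCR copies of one molecule may be counted separately.

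Genotypes were taken from the sample labels, and 0 columns were left unused. From the deposited counts, features were kept by filterByExpr (minimum count 10, minimum total count 15), scaled by TMM and compared over all 13 mice with edgeR 4.0.16 (robust quasi-likelihood fit, Benjamini-Hochberg over each table). Ratios were compared by exact permutation and, in the replicate block, by exact sign flips. limma 3.58.1, DESeq2 1.42.0, R 4.3.3, Python 3.11.15, numpy 2.4.6, pandas 2.3.3 and matplotlib 3.10.9 were used. Scripts were tested on simulated data. Libraries of one genotype differed by far more than sampling noise (chi-square per degree of freedom at least 15.0). The features named are the members, the 3 features most like each of 4 members, and hairpins of the lists. The members and lists were chosen with earlier results of these data known. Alternatives covered scaling, filters, tools, the replicate block, each library left out and libraries of overlapping mature totals.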

Additional observations from a re-analysis of the deposited data

Results flagged for a closer look

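None of the 24 groups of values checked, the levels and ratios of the members in each genotype, held a mouse that stood apart from the others by Dixon's test at the 95% level. By chance 1.2 would be met.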

How the results depend on the processing

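Scaling decided the sign of the values nearest to 0. For hairpin mir-191 the log2 fold change was -0.034 with RLE factors, -0.16 with upper-quartile factors and 0.42, past the threshold, with library size only. Library size only gave 0.091 for miR-191-3p and -0.10, not past the threshold, for miR-191-5p, which also missed it without a filter on low counts (-0.26, edgeR adjusted p = 0.0528). Upper-quartile factors gave 0.25 for miR-425-5p and 0.56 for miR-425-3p, neither past the threshold. With each count divided by its table total, the difference of hairpin mir-425 to its arms was 0.28 (exact permutation adjusted p = 0.0498).

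In libraries whose mature totals lay between the lowest *Tet2/3* DKO and the highest WT total (WT replicates 3, 4 and 5 and *Tet2/3* DKO replicates 3 and 7, chosen after seeing the data), 134 hairpins and 135 mature sequences passed the threshold with fewer mice. miR-191-5p (-0.22) and miR-425-5p (0.36) no longer passed it, while mir-425 (0.75, edgeR adjusted p = 0.0092) and miR-425-3p (1.61, edgeR adjusted p = 0.0185) did. Hairpin depth was less alike, with 728653 counts in *Tet2/3* DKO replicate 7 against 1056787 to 1110226 in these WT libraries. The ratios kept their direction, at 0.58 for miR-425-5p to miR-191-5p, 0.48 for mir-425 to mir-191 and 0.51 for mir-191 to its arms, but this size cannot reach an exact p under 0.05.

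With 1 library left out, the log2 fold changes were 0.013 to 0.13 for mir-191, 0.56 to 0.68 for mir-425, -0.48 to -0.31 for miR-191-5p, -0.27 to -0.14 for miR-191-3p, 0.29 to 0.41 for miR-425-5p and 0.50 to 0.96 for miR-425-3p. The calls of mir-425, miR-191-5p and miR-425-5p held each time. The log2 ratios were 0.69 to 0.84 for miR-425-5p to miR-191-5p, 0.46 to 0.61 for mir-425 to mir-191 and 0.41 to 0.50 for mir-191 to its arms, each past the threshold 13 of 13 times.

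Same-numbered mice were not treated as pairs, since the labels do not name them as such. Their deviations correlated at -0.050 to 0.34 for hairpins and 0.012 to 0.34 for mature sequences, over 0.1 in 2 of 6 and 3 of 6 pairs. Of 12 libraries, 5 and 4 correlated best with their own number. These values do not settle whether same-numbered mice share a source of variation. The replicate block left out *Tet2/3* DKO replicate 7, which has no WT mouse of its number. Ratios were then tested by flipping the signs of the 6 differences between same-numbered mice. The log2 ratios were 0.26 for miR-191-3p to miR-191-5p and 0.24 for mir-425 to its arms, both past the threshold (exact sign-flip p = 0.03125, adjusted p = 0.0375). With 6 differences this is the smallest p the sign flips can give, and it shows only that all 6 had the same sign. Leaving out replicate 7 alone gave the same 0.26 and 0.24, neither past the threshold (exact permutation adjusted p = 0.0942 and 0.106). With the block 217 hairpins and 225 mature sequences passed the threshold, and the other calls of the members did not change. Except for the scaling itself, the cause of these changes was not tested. Depth limits miR-425-3p most, with 21 counts in 1 library.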
